A study of Homo sapiens with 18 samples.

Results

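The 8 genes described here are heme oxygenase 1 (HMOX1) and 7 other targets of the transcription factor NRF2, namely NQO1, GCLM, GCLC, TXNRD1, SRXN1, SLC7A11 and OSGIN1. They were taken from the 22357 genes that the array's annotation names alone on at least 1 row, a row being a transcript cluster of the array. The row with the highest mean stood for its gene, and all 8 were among the 16111 genes tested. HMOX1 was chosen by its measured levels in these same arrays, where it was higher with ST than with EcN flagellin at 120 min. The other 7 were taken as NRF2 targets, to ask whether they moved with it.

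Transcript levels were measured on 18 Affymetrix Human Gene 2.1 ST arrays in HEK293 cells, an established line of human embryonic kidney origin, made to overexpress murine TLR5, which senses flagellin. The 6 groups of 3 arrays (A, B and C) were mock-treated cells, cells given isolated flagellin of E. coli Nissle (EcN) and cells given that of Salmonella Typhimurium SL1344 (ST), each at 60 and at 120 min, with flagellin at an amount matched to a multiplicity of infection of 10. All groups carried the TLR5 transgene, whose promoter is not named in the labels, and came from SILAC cultures with lysine and arginine in light, medium or heavy form. The labels do not say which array had which form, so any difference between the forms and an effect of flagellin cannot be told apart. The titles call the letters biological replicates but name no separate cultures, and nothing says whether the line is 1 clone, so p-values measure the spread between these arrays, which may be partly technical.

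NRF2 is held in the cytoplasm by KEAP1, which directs it to degradation. Oxidants and electrophiles block KEAP1, and NRF2 then enters the nucleus, pairs with a small MAF protein and binds antioxidant response elements near genes of glutathione, thioredoxin, quinone and heme metabolism. HMOX1, which breaks down heme to biliverdin, iron and carbon monoxide, is also held down by the repressor BACH1 and responds to heat shock, metal and inflammatory signals.

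In RefSeq's promoter table for GRCh38.p14, which holds 250 bases before to 50 after a gene's start, 6 of the 8 genes had an entry and HMOX1 and SLC7A11 did not. The core of the antioxidant response element, TGACNNNGC on either strand, was found for 2 of the 6, GCLM and TXNRD1, and in 13.3% of all 35116 promoter windows of the table. None of these matches overlapped an AP-1 motif (TGANTCA, either strand), which was found for OSGIN1 and in 7.71% of all windows. The shares count windows, of which TXNRD1 has 2, and not genes. Bases outside the windows were not searched, so a gene without a match may hold the motif further away. Stretches around 3 of the matches are shown 5′ to 3′ on the gene's strand, with the match in capitals, since GCLM and TXNRD1 are the 2 targets with a match. A further TXNRD1 match, which begins at position -8 from the first start and reaches that start, is not shown. The GCLM stretch is chr1:93909431-93909494 (minus strand), and the TXNRD1 stretches, before 2 starts of the gene, are chr12:104215650-104215718 and chr12:104286900-104286968 (plus strand).
GCLM: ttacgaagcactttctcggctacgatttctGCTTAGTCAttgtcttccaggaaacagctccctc
TXNRD1, first start: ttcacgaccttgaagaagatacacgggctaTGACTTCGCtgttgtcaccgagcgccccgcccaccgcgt
TXNRD1, second start: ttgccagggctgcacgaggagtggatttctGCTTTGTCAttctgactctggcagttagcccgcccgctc

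Levels are log2 values from RMA, differences are on the log2 scale with their standard error (SE), and a gene was called at an adjusted p under 0.05 in a limma fit over all 16111 genes. Array medians lay between 2.27 and 2.32. The 5 arrays EcN 60 min C, EcN 120 min C, ST 60 min C, ST 120 min C and mock 120 min A stood apart from the other 13 by an NF-kB response. NFKBIA lay between 10.15 and 10.85 on these 5 and between 8.09 and 8.82 on the others, and CXCL8 between 5.62 and 8.76 against 2.16 to 2.90. Against its label, mock 120 min A showed this response without flagellin. Arrays A and B of every flagellin group did not show it, with NFKBIA between 8.09 and 8.43, against 8.59 to 8.82 in mock at 60 min. Leaving out the 5 arrays thus removes every flagellin array with this response. The 6 ST arrays are called mock in their description fields and ST in their titles, which were followed. The 8 HEK293 markers all passed the filter on low rows (NEFL 9.90 to 10.65, VIM 7.55 to 8.48). The dimmest of them, NEFM, had a median of 2.12 over the arrays and a highest level of 2.44. NEFM thus passed although its median lay below the lowest array median. KRT8 was also dimmer than NEFL and VIM, at 3.95 to 4.91. Of leukocyte markers 2 of 7 passed, CD68 (8.89 to 9.46) and CD14 (2.34 to 2.93), while PTPRC and CD3E did not. Of fibroblast markers 2 of 5 passed, LUM (4.83 to 6.32) and COL1A1 (4.36 to 4.99), while DCN and COL1A2 did not. Of intestinal epithelial markers 4 of 5 passed, with LGR5 the brightest (8.13 to 9.15), while KRT20 did not.

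HMOX1 was highest in ST-treated cells at both times and lowest in EcN-treated cells at 120 min. Its levels were 8.25, 8.42 and 8.28 in mock at 60 min and 8.45, 8.01 and 8.18 in mock at 120 min. They were 8.09, 8.22 and 8.17 with EcN at 60 min and 7.84, 7.68 and 7.79 with EcN at 120 min. With ST they were 8.87, 8.52 and 9.01 at 60 min and 8.83, 8.50 and 8.55 at 120 min. All 6 ST arrays thus lay above all 12 others, and the 3 EcN arrays at 120 min lay below all 15 others. In order of the mean the groups ran from EcN 120 min (7.77 ± 0.08, SD, n = 3) through EcN 60 min (8.16 ± 0.07), mock 120 min (8.21 ± 0.22), mock 60 min (8.32 ± 0.09) and ST 120 min (8.63 ± 0.18) to ST 60 min (8.80 ± 0.26). Neighbours in this order overlapped, except EcN 120 min with EcN 60 min and mock 60 min with ST 120 min.

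**Figure D1:**
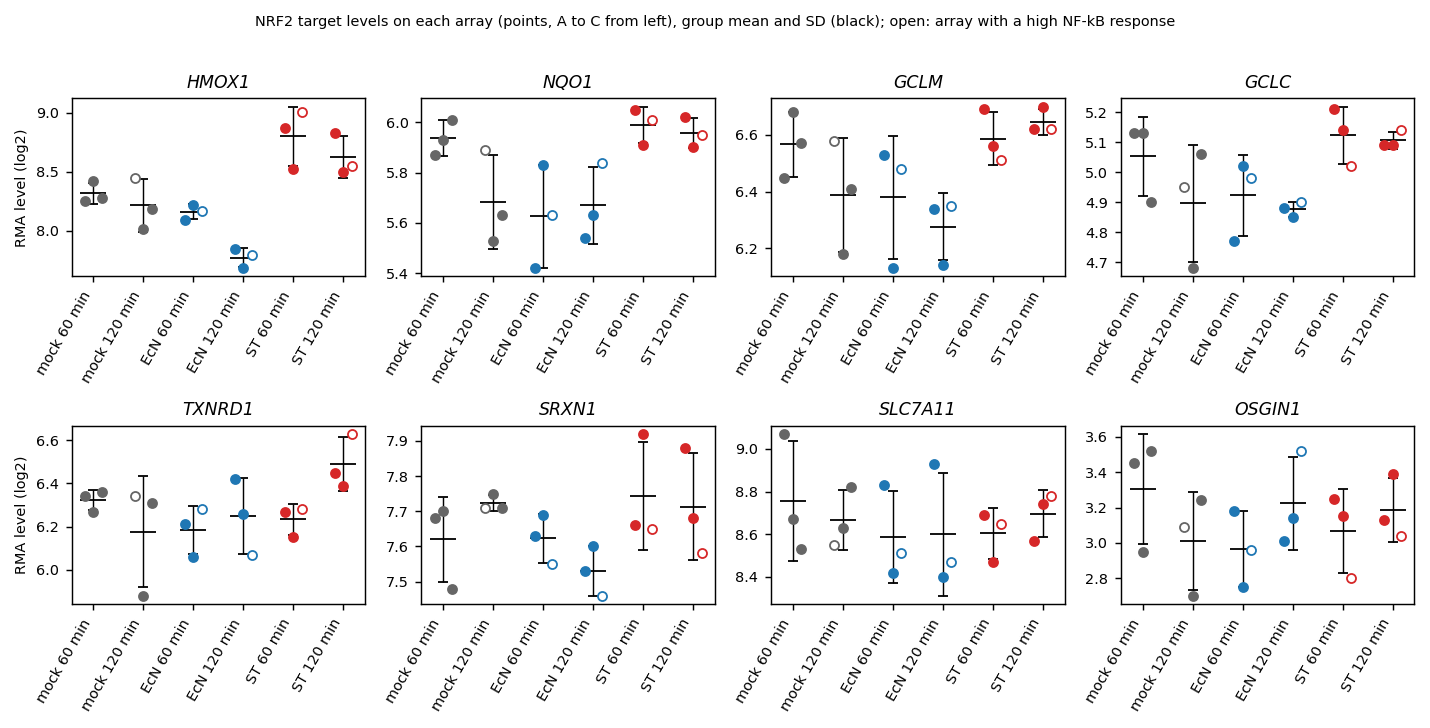
RMA level (log2) of the 8 genes on each of the 18 arrays, with letters A to C from left to right in each group, the group mean and the SD (n = 3) in black, and open points for the 5 arrays with a high NF-kB response. All 6 ST arrays lie above all others for HMOX1, and SLC7A11 and OSGIN1 show overlapping groups.

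The difference of HMOX1 between ST and EcN at 120 min, for which it was chosen, was 0.86 ± 0.13 (1.81-fold) and is given as a description. The arrays at 60 min took no part in that choice. There HMOX1 was higher with ST than in mock by 0.48 ± 0.13 (1.39-fold), with an adjusted p = 0.0495 by limma, just inside the threshold, and with no overlap of the 3 and 3 arrays, as for 14.2% of all genes. This was the 1 call among the 8 genes, against 5.26% of all genes called in that comparison and 2.23% called higher. It did not hold without the 5 arrays that stood apart (0.37, adjusted p = 0.162), nor without ST 60 min C alone, which gave the same 0.37 (adjusted p = 0.172). It was also lost with the replicate letter as a block (adjusted p = 0.0517) and kept under 9 of 28 alternatives.

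Set directly against EcN at 60 min, ST gave 0.64 ± 0.13 (1.56-fold, 95% interval 0.35 to 0.92), or 0.54 without the 5 arrays that stood apart. The unadjusted p was 0.000213 and the adjusted p = 0.229, so HMOX1 did not pass limma's test over all genes. In that comparison limma called 0 of 16111 genes (0% called), and at an unadjusted p under 0.05 it had 670 higher and 811 lower. EcN over mock at 60 min gave -0.16 ± 0.13 (adjusted p = 0.500), although the 3 EcN arrays lay below the 3 mock arrays, as for 15.2% of all genes.

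At 120 min HMOX1 lay between the flagellins in mock. ST over mock was 0.41 ± 0.13 (adjusted p = 0.138) and EcN over mock was -0.45 ± 0.13 (adjusted p = 0.123), and neither passed limma's test. These comparisons share the EcN and ST arrays on which HMOX1 was chosen, so nothing is read from their p-values. They share the mock arrays with each other, and the mock arrays themselves were spread. Without mock 120 min A the ST difference was 0.53, and without mock 120 min B it was 0.31. The summed log2 level of 6 housekeeping genes was 42.6 to 44.4 in EcN at 120 min, the group with the least HMOX1, against 44.9 to 45.9 in mock at 120 min and 44.1 to 45.9 in ST at 120 min. The summed level of 4 fibroblast markers was 12.4 to 12.9 in the 6 ST arrays, where HMOX1 was highest, against 13.1 to 14.3 in all others, with DCN and COL1A2 too low to pass the filter. Their part in the HMOX1 differences was not tested. On the 5 arrays with a high NF-kB response HMOX1 was set against the mean of the other 2 arrays of their groups. It was 0.02 for array C of EcN at 60 min and 0.03 for that at 120 min. It was 0.32 for array C of ST at 60 min, -0.11 for that at 120 min, and 0.35 for array A of mock at 120 min. A relation of HMOX1 to this response was not tested.

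NQO1, a quinone reductase and a standard readout of NRF2, had the array pattern nearest to that of HMOX1 among the 7. Its levels were 5.87, 5.93 and 6.01 in mock at 60 min, 5.42, 5.83 and 5.63 with EcN, and 6.05, 5.91 and 6.01 with ST. At 120 min they were 5.89, 5.53 and 5.63 in mock, 5.54, 5.63 and 5.84 with EcN, and 6.02, 5.90 and 5.95 with ST. ST arrays lay above EcN arrays at both times without overlap, and ST and mock overlapped at 60 min but not at 120 min. ST over EcN at 60 min was 0.37 ± 0.12 (1.29-fold, unadjusted p = 0.00739, adjusted p = 0.399 by limma). EcN over mock at 60 min was -0.31 ± 0.12 (adjusted p = 0.124) and ST over mock at 120 min was 0.27 ± 0.12 (adjusted p = 0.255), so NQO1 passed in no comparison.

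GCLM and GCLC, the modifier and catalytic subunits of the ligase that begins glutathione synthesis, had smaller differences. GCLM was 6.45, 6.68 and 6.57 in mock, 6.53, 6.13 and 6.48 with EcN and 6.69, 6.56 and 6.51 with ST at 60 min, where all groups overlapped. At 120 min it was 6.58, 6.18 and 6.41 in mock, 6.34, 6.14 and 6.35 with EcN and 6.62, 6.70 and 6.62 with ST, with every ST array above both other groups. GCLC at 120 min was 4.95, 4.68 and 5.06 in mock, 4.88, 4.85 and 4.90 with EcN and 5.09, 5.09 and 5.14 with ST, again with ST on top. At 60 min GCLC was 5.13, 5.13 and 4.90 in mock, 4.77, 5.02 and 4.98 with EcN and 5.21, 5.14 and 5.02 with ST. ST over mock at 120 min was 0.26 ± 0.12 for GCLM and 0.21 ± 0.11 for GCLC, and neither passed limma's test (adjusted p = 0.284 and 0.326). Both values lean on mock 120 min B, without which they were 0.15 and 0.10. The difference from mock of both subunits with ST at 60 min was near 0, at 0.02 ± 0.12 and 0.07 ± 0.11.

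TXNRD1 encodes the cytosolic thioredoxin reductase, which keeps thioredoxin reduced. With ST it was 6.27, 6.15 and 6.28 at 60 min and 6.45, 6.39 and 6.63 at 120 min, so the times did not overlap, while it stayed between 6.06 and 6.42 with EcN. ST over mock at 120 min was 0.31 ± 0.12 (adjusted p = 0.212), against -0.09 ± 0.12 at 60 min. The change of the ST effect between the times was 0.40 ± 0.18 (unadjusted p = 0.0358, adjusted p = 0.438), which did not pass limma's test. Mock at 120 min held 6.34, 5.88 and 6.31, and without its low array B the ST difference there was 0.17.

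SRXN1, SLC7A11 and OSGIN1 showed no separation of ST from EcN or mock. SRXN1, which encodes the sulfiredoxin that repairs overoxidised peroxiredoxins, ranged from 7.46 to 7.92 over the 18 arrays, and its lowest group was EcN at 120 min (7.53, 7.60 and 7.46). A further row that names SRXN1 alone was dimmer, at 1.93 to 3.22, above its array's median on 13 of 18 arrays, and was not used. SLC7A11, the cystine importer that feeds glutathione synthesis, ranged from 8.40 to 9.07, with the highest value in mock 60 min A. OSGIN1, an oxidative stress response gene, ranged from 2.70 to 3.52. For ST over mock at 120 min the 3 gave -0.01 ± 0.10, 0.03 ± 0.16 and 0.18 ± 0.19. The 95% interval for SLC7A11 ran from -0.31 to 0.37, so a difference as large as that of GCLM (0.26, not called) is not excluded for it.

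**Figure D2:**
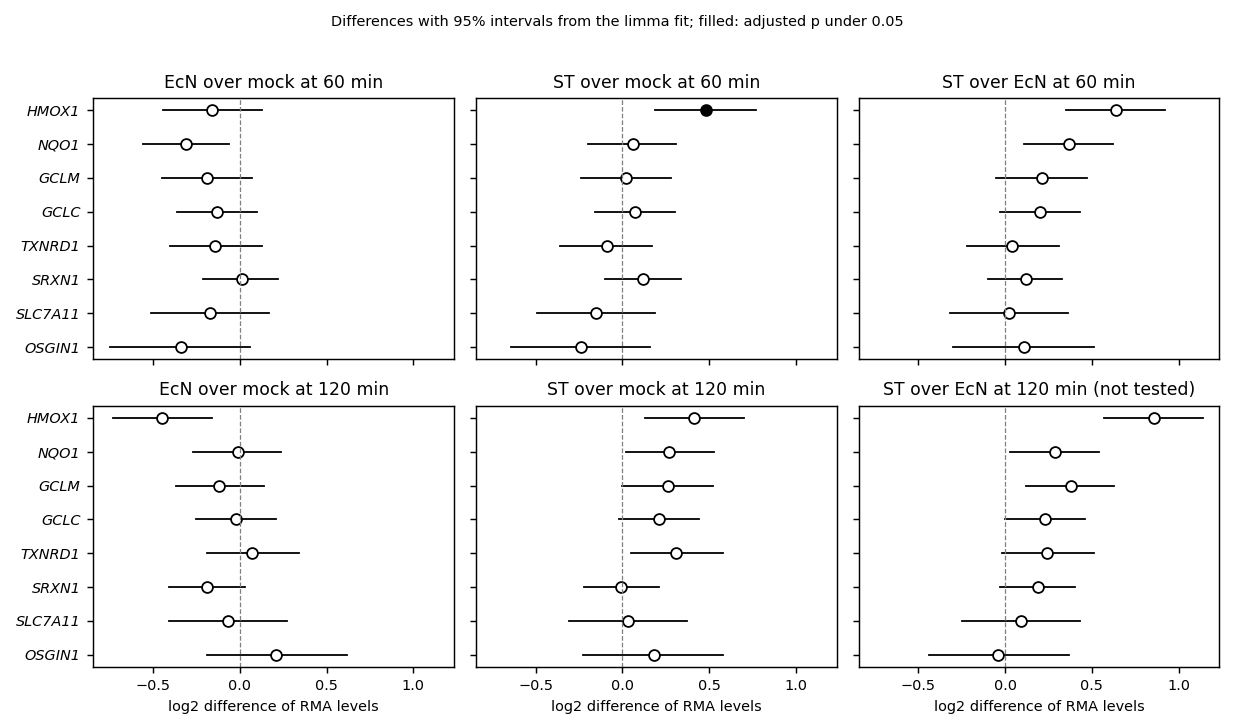
Difference of RMA levels (log2) for the 8 genes in 6 comparisons, with 95% intervals from the limma fit on 18 arrays. The filled point, HMOX1 for ST over mock at 60 min (0.48), is the 1 difference with an adjusted p under 0.05, and ST over EcN at 120 min was not tested.

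For ST over mock at 60 min, which holds the 1 call, 5 of the 8 differences lay above 0 and 3 below, with a median of 0.04 (0.02 without HMOX1), and HMOX1 alone did not overlap. For ST over EcN at 60 min all 8 differences were above 0, as for 47.5% of all genes, with a median of 0.16 against -0.01 over all genes. In that comparison 3 of the 8 (HMOX1, NQO1 and GCLC) did not overlap between the groups, against 8.14% of all genes higher without overlap. For ST over mock at 120 min 7 of 8 lay above 0 with a median of 0.24, or 0.21 without HMOX1. HMOX1 was chosen on these ST arrays, so nothing is read from its own difference here. Of the other 7, NQO1, GCLM, GCLC and TXNRD1 did not overlap, against 8.81% of all genes. There limma called 0 of the 8, and of the other 7 NQO1, GCLM and TXNRD1 were higher at an unadjusted p under 0.05. Of all genes 0.559% were called and 8.99% were higher at the unadjusted p. For ST over EcN at 120 min, which chose HMOX1, NQO1, GCLM and GCLC of the other 7 did not overlap, against 10.5% of all genes. These comparisons share arrays with each other, so their values are set side by side only.

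Most EcN differences from mock lay below 0. For EcN over mock at 60 min 7 of 8 differences lay below 0 with a median of -0.16, where 48.3% of all genes lay below 0, and 2 (HMOX1 and NQO1) did not overlap, against 15.2% of all genes lower without overlap. Limma called 0 of the 8, and 1 of them, NQO1, was lower at an unadjusted p under 0.05. Of all genes 6.45% were called and 12.2% were lower at the unadjusted p, so 1 of 8 is near the share over all genes. For EcN over mock at 120 min 6 of 8 lay below 0 with a median of -0.04, HMOX1 and SRXN1 did not overlap, against 9.11% of all genes lower without overlap, and limma called 0, where 0.0621% of all genes were called. At an unadjusted p under 0.05, 1 of the 8 was lower, as were 8.28% of all genes. It was HMOX1, whose low level on these EcN arrays was part of its choice, so nothing is read from it.

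Between the times, without regard to flagellin, limma called 0 of the 8 genes in mock, EcN or ST, where 0% of all genes were called. At an unadjusted p under 0.05 this count was 0 in mock and in ST, and 1 in EcN, which was HMOX1 (-0.39 ± 0.13, adjusted p = 0.496), a difference that uses the EcN arrays at 120 min on which it was chosen. Over all genes it was 962 higher and 988 lower in mock, 610 and 671 in EcN, and 330 and 443 in ST. The 0% called in mock rests on mock 120 min A, an array that stood apart. Without it limma called 979 of all genes in mock. Times did not overlap for SRXN1 in mock (120 min higher, as for 5.62% of all genes), HMOX1 in EcN (lower, 8.24%) and TXNRD1 in ST (higher, 6.11%). In mock 7 of 8 differences lay below 0, as for 51.1% of all genes. Mock 120 min B held the lowest level of its group for 6 of the 8 genes, and the lowest of all 18 arrays for GCLC, TXNRD1 and OSGIN1, so differences from mock at 120 min lean on it. For the change of the EcN or ST effect from 60 to 120 min limma called 0 of the 8, with 0% of all genes called for each. Without mock 120 min A it called 556 of all genes for EcN and 475 for ST. At an unadjusted p under 0.05 there were 0 of the 8 for EcN, with 5.95% of all genes higher and 6.07% lower. For ST there was 1, TXNRD1, which was higher, as were 5.46% of all genes.

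Likeness over arrays was taken as the correlation of each gene's levels with those of HMOX1. Over all 18 arrays, 6 of which the choice of HMOX1 used, Pearson's r and Spearman's rho were 0.75 and 0.88 for NQO1, 0.70 and 0.75 for GCLM, and 0.67 and 0.76 for GCLC. They were 0.47 and 0.36 for SRXN1, 0.35 and 0.38 for TXNRD1, 0.05 and 0.15 for SLC7A11 and -0.12 and -0.03 for OSGIN1, all given as a description. Among the 16110 other genes tested, r ranked NQO1 at place 40, GCLM at 74 and GCLC at 120, with TXNRD1 at 2117. As deviations from the group means, which remove the differences between groups, r was 0.58 for NQO1, 0.39 for TXNRD1, 0.30 for GCLM, 0.23 for GCLC, -0.05 for SLC7A11, -0.15 for SRXN1 and -0.21 for OSGIN1.

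On the 12 arrays outside EcN and ST at 120 min the 7 correlations were tested with two-sided permutation tests of 100000 resamples, adjusted over the 7. The arrays come in 4 groups, which the permutations did not keep together. Differences between groups that both genes share can thus make these p-values too small. NQO1 had r = 0.77 (permutation p = 0.00411, adjusted 0.0288) and rho = 0.92 (permutation p = 0.00014, adjusted 0.00098). Without ST 60 min C and ST 60 min A, the 2 arrays farthest from the HMOX1 median, its r was 0.80. GCLM had r = 0.54 (permutation p = 0.0620, adjusted 0.145) and rho = 0.63 (permutation p = 0.0342, adjusted 0.0798), and GCLC had r = 0.58 (permutation p = 0.0454, adjusted 0.145) and rho = 0.63 (permutation p = 0.0324, adjusted 0.0798). Neither passed after adjustment, and their r without the same 2 arrays was 0.62 and 0.71. TXNRD1 (r = 0.33), SRXN1 (0.10), OSGIN1 (-0.02) and SLC7A11 (-0.10) had adjusted permutation p-values from 0.514 to 0.946. As deviations from the group means on these 12 arrays, r was 0.67 for NQO1, 0.55 for TXNRD1, 0.34 for GCLM and 0.27 for GCLC. It was -0.07 for SLC7A11, -0.20 for OSGIN1 and -0.48 for SRXN1, and these were not tested.

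**Figure D3:**
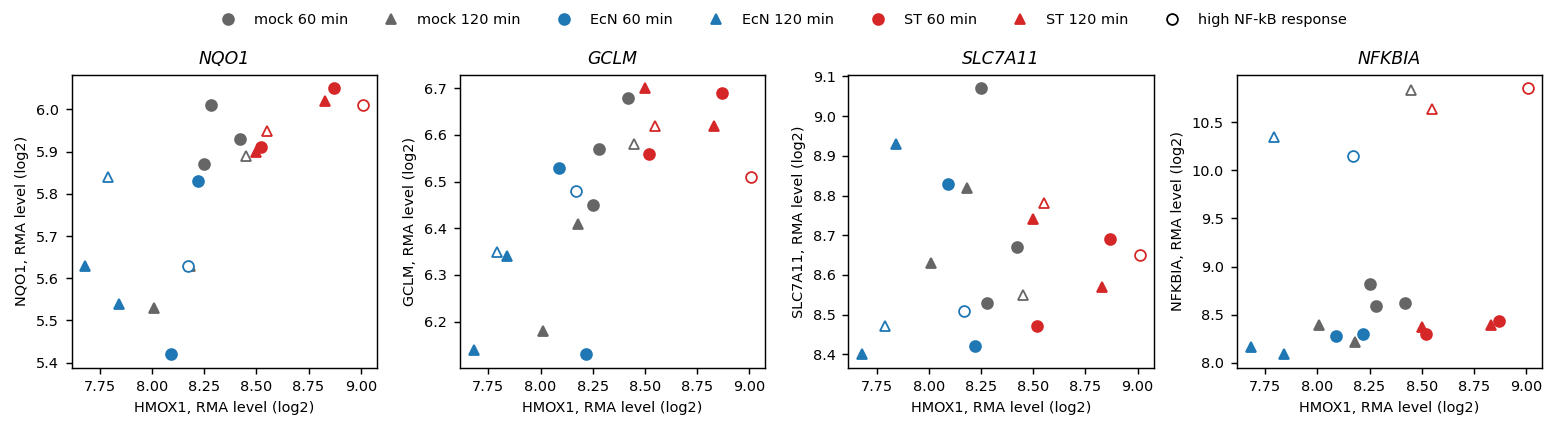
HMOX1 level (log2, horizontal) against NQO1, GCLM, SLC7A11 and NFKBIA (log2, vertical) on the 18 arrays, by treatment (colour) and time (shape), with open symbols for the 5 arrays with a high NF-kB response. Over these arrays, 6 of which chose HMOX1, r is 0.75 for NQO1, 0.70 for GCLM and 0.05 for SLC7A11, and the 5 arrays high in NFKBIA spread over the HMOX1 axis from 7.79 to 9.01.

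The 5 genes with the highest r to HMOX1 were none of the NRF2 targets. They were LHX4-AS1 (0.899), an antisense transcript, CCN3 (0.872), a matricellular protein, IKBIP (0.864), GET3 (0.851), which delivers tail-anchored proteins to the endoplasmic reticulum, and CCDC8 (0.847). CCN3 was 7.38, 7.40 and 7.44 with ST at 60 min and 7.66, 7.43 and 7.57 at 120 min, against 6.65 to 7.27 on the 12 other arrays. For ST over mock at 120 min CCN3 was higher by 0.60 ± 0.13 (adjusted p = 0.0459 by limma), and the other 4 were called in no comparison. They were picked as the highest of 16110 correlations, over the arrays that also give that difference.

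Among the regulators of NRF2, limma called EP300 alone in the comparisons with mock. NFE2L2, which encodes NRF2, ranged from 6.09 to 6.86, each flagellin group overlapping mock, and ST over mock at 120 min was 0.19 ± 0.14 (adjusted p = 0.514). KEAP1 was 7.68, 7.64 and 8.13 in mock at 120 min, 8.28, 8.32 and 8.12 with EcN and 8.34, 8.33 and 8.10 with ST. Its differences from mock, 0.42 ± 0.13 and 0.44 ± 0.13, did not pass (adjusted p = 0.125 and 0.105). The NRF2 partner MAFG was 6.51, 6.75 and 6.40 in mock and 7.08, 6.67 and 6.93 with ST at 60 min (0.34 ± 0.13, adjusted p = 0.123). The partner MAFF was 3.66, 3.12 and 3.68 in mock and 3.79, 3.79 and 4.25 with ST at 120 min (0.46 ± 0.19, adjusted p = 0.229). BACH1 has no row that names it alone and was not analysed here. Of the 13 regulators tested out of 16 listed, 1 was called in each flagellin's comparison with mock at 60 min, where 6.45% of all genes were called with EcN and 5.26% with ST. This was EP300, a coactivator that acetylates histones and NRF2. It was lower than in mock by 0.35 ± 0.10 with EcN (adjusted p = 0.0492) and by 0.50 ± 0.10 with ST (adjusted p = 0.0145). Without EcN 60 min B limma called 0 of 16111 genes for EcN over mock at 60 min. The calls with EcN at 60 min, here and in the lists below, were thus all lost without that array. In mock EP300 was itself lower at 120 than at 60 min by 0.31 ± 0.10 (adjusted p = 0.271 by limma), without overlap. At 120 min limma called 0 regulators for either flagellin. At an unadjusted p under 0.05, KEAP1, MAFG, CREBBP and EP300 were higher with EcN, and KEAP1 and MAFF with ST. Of all genes 8.24% were higher at this p with EcN and 8.99% with ST.

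A wider list of NRF2 targets lay near the middle of all genes. Of its 30 genes 21 were tested, with medians of 0.04 and -0.02 for EcN and ST over mock at 60 min and -0.04 and 0.06 at 120 min, against medians between -0.00 and 0.01 over all genes. At 60 min 3 of the 21 were called with EcN, against 6.45% of all genes: the redox protein gene TXN rose by 0.69 ± 0.16 (adjusted p = 0.0246), the thioredoxin inhibitor TXNIP rose by 0.66 ± 0.15 (adjusted p = 0.0251), and the pentose phosphate enzyme TALDO1 fell by 0.36 ± 0.10 (adjusted p = 0.0412). These 3 calls were lost without EcN 60 min B. TXNIP also rose with ST at 60 min (0.55 ± 0.15, adjusted p = 0.0494), the 1 call there, against 5.26% of all genes. TXNIP levels at 60 min were 3.59, 3.77 and 3.67 in mock, 4.29, 4.39 and 4.34 with EcN and 4.26, 4.30 and 4.11 with ST. Both flagellins thus lay above mock at 60 min, where HMOX1 did so with ST alone. Mock at 120 min held 3.45, 4.20 and 4.18 for TXNIP. At 120 min limma called 0 for either flagellin. At an unadjusted p under 0.05 the transporter gene ABCC4 was higher and TXNIP lower with EcN, and the malic enzyme gene ME1 was higher with ST. Of all genes 8.24% were higher and 8.28% lower at this p with EcN, and 8.99% were higher with ST.

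Heme and iron genes and other antioxidant enzymes gave few calls. Of 19 heme and iron genes 16 were tested and limma called 0 in all 4 comparisons with mock. At an unadjusted p under 0.05, 5 were higher and 2 lower with EcN and 4 higher and 2 lower with ST at 60 min, and 1 and 2 with EcN and 2 and 1 with ST at 120 min. The shares over all genes at this p were 12.7% higher and 12.2% lower with EcN and 10.2% and 12.3% with ST at 60 min, and 8.24% and 8.28% with EcN and 8.99% and 8.57% with ST at 120 min. HMOX2, the constitutive heme oxygenase, was 5.86, 5.76 and 5.95 in mock and 6.16, 6.49 and 6.37 with ST at 60 min (0.49 ± 0.15, adjusted p = 0.0654) and 6.35, 6.37 and 6.01 with EcN (0.39 ± 0.15, adjusted p = 0.119). The list's medians were 0.13 and -0.02 at 60 min and 0.06 and -0.03 at 120 min, for EcN and ST. Of 18 other antioxidant enzymes 16 were tested. PRDX4, a peroxiredoxin of the endoplasmic reticulum, rose with EcN at 60 min (0.36 ± 0.10, adjusted p = 0.0481), and there were 0 further calls, with medians from -0.03 to -0.00. This 1 call of 16 is near the 6.45% of all genes called in that comparison, and it was lost without EcN 60 min B.

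Lists for other signals that act on HMOX1 were set beside it. Of 14 heat shock genes 9 were tested and limma called 0 against mock at either time, with medians of 0.12 and 0.17 for ST at 60 and 120 min and -0.01 and -0.03 for EcN. At an unadjusted p under 0.05, 2 were higher and 1 lower for either flagellin at 60 min, 1 and 1 for EcN at 120 min, and 4 and 0 for ST at 120 min, where 8.99% of all genes were higher at this p with ST and 8.24% with EcN. At 60 min that share was 10.2% with ST and 12.7% with EcN. HSPH1, a chaperone partner, had 0.57 ± 0.14 for ST over mock at 120 min (adjusted p = 0.0805) without overlap. Of 16 genes of the ATF4 response, all tested, 4 rose with ST at 60 min, where 2.23% of all genes were called higher: the transcription factors ATF3 (1.26 ± 0.34) and XBP1 (0.40 ± 0.11), the serine synthesis enzyme PHGDH (0.38 ± 0.10), and SLC3A2 (0.35 ± 0.10), the partner chain of SLC7A11. PHGDH rose with EcN too (0.43 ± 0.10) and the amino acid carrier SLC7A5 fell by 0.40 ± 0.09, where 6.45% of all genes were called. Adjusted p for these 6 lay between 0.0250 for SLC7A5 and 0.0493 for SLC3A2. The calls of PHGDH and SLC7A5 with EcN were lost without EcN 60 min B. The list's median was 0.31 with EcN and 0.35 with ST at 60 min, and -0.02 and 0.05 at 120 min, where limma called 0. At an unadjusted p under 0.05 there were 0 for EcN and 3 higher and 1 lower for ST at 120 min. Of all genes 8.99% were higher and 8.57% lower at this p with ST. Mock itself differed between the times: at 120 over 60 min 15 of the 16 genes lay above 0, with a median of 0.30. That median was -0.04 in EcN and 0.00 in ST. The lower medians against mock at 120 min thus hold a change in mock, whose cause was not tested.

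Of 11 genes of the metal response 8 were tested. MT1F, a metallothionein that binds zinc and copper, fell by 1.11 ± 0.19 with ST (adjusted p = 0.0101) and by 0.80 ± 0.19 with EcN (adjusted p = 0.0285) at 60 min. Its levels were 7.24, 7.60 and 7.38 in mock, 6.57, 6.99 and 6.25 with EcN and 6.02, 6.20 and 6.69 with ST, so both flagellins lay below mock. MT1F was the 1 call of 8 for each flagellin at 60 min, where 5.26% of all genes were called with ST and 6.45% with EcN. The MT1F call with EcN was lost without EcN 60 min B. The list's medians were -0.24 and -0.17 at 60 min and 0.03 and 0.09 at 120 min, for EcN and ST. NF-kB response genes, 17 of 18 tested, held 0 calls by limma in the 4 comparisons with mock. Their median was 0.60 for ST and 0.24 for EcN at 60 min. At an unadjusted p under 0.05 there was 1 gene, NFKBIE, higher with ST at 60 min, as were 10.2% of all genes. Each flagellin group held 1 of the 5 arrays that stood apart. Metallothionein genes are near-identical copies, so signal from MT1F and its neighbours may be shared on the array.

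**Figure D4:**
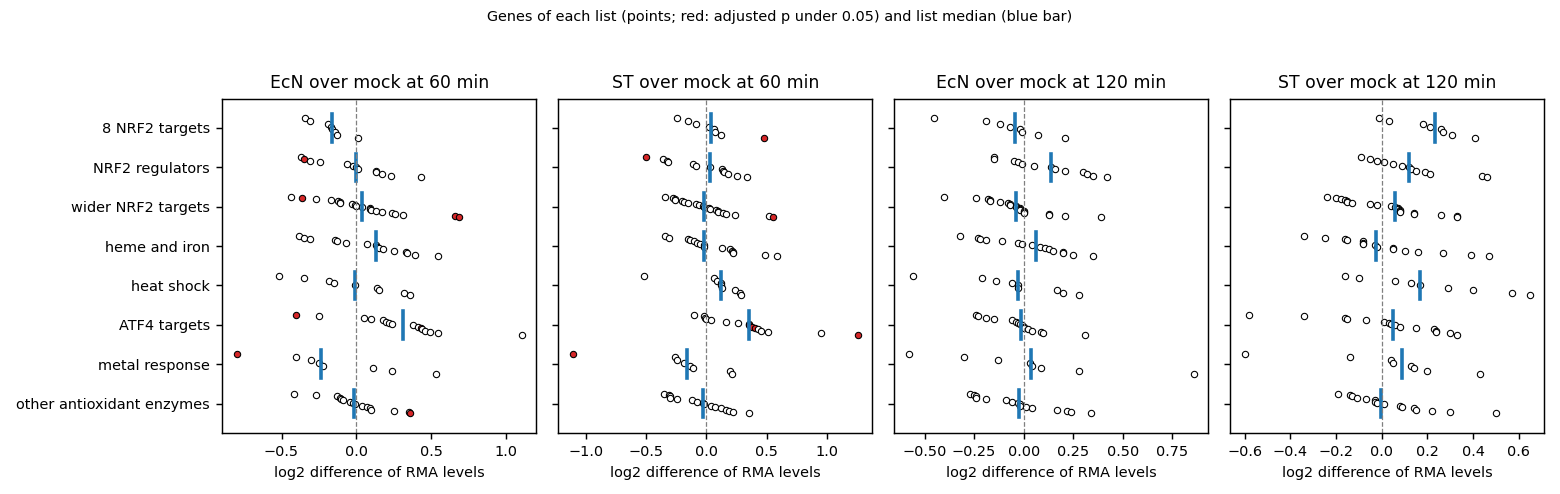
Difference from mock (log2) of each tested gene in the 8 NRF2 targets and 7 gene lists, in 4 panels with their own horizontal scales. Points are genes, red where the adjusted p was under 0.05, and blue bars are list medians, which for the 8 targets run from -0.16 (EcN at 60 min) to 0.24 (ST at 120 min).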

How the data were processed

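The deposited log2 values are the authors', who used RMA and oligo 1.30.0 according to the submitters' processing notes. The array's annotation version and genome build are not named there. RMA aligns the arrays' distributions, so a change shared by most genes would not show. Values were used as deposited.

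Of 53617 rows, 23871 had 1 gene symbol, 1842 several and 27904 none. Symbols were updated through RefSeq. A row was tested if it lay above its array's median on at least 3 of 18 arrays, and the row with the highest mean stood for its gene. limma 3.58.1 in R 4.3.3 (lmFit, eBayes) fitted 6 group means to all 18 arrays, with 12 residual and 4.20 prior degrees of freedom. p-values are two-sided and Benjamini-Hochberg adjusted over 16111 genes within a comparison. The fit was tested on simulated data. The number of arrays limits the precision.

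The members, lists and tests were chosen with earlier results of these data known. Named were all 8 genes in every comparison, at most 4 called genes a list and comparison, NFE2L2, KEAP1, MAFG, MAFF, NFKBIA and CXCL8, and the 5 genes most correlated with HMOX1. NEFL, VIM, HMOX2, HSPH1, other markers and SRXN1's second row were named after their values were seen. Alternatives were other scaling, filters, rows, groups in the fit, weights, variance settings, the letter as a block, and leaving out arrays. Leaving out the 5 arrays that stand apart, and the correlations on 12 arrays, were added after seeing the data.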

Additional observations from a re-analysis of the deposited data

How the results depend on the processing

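There were 28 alternatives, 18 of which left out 1 array. Of the 80 tested pairs of a gene and a comparison, 78 stayed on the same side of the threshold under every alternative run, and the 2 that changed were HMOX1 for ST over mock at 60 and at 120 min. At 60 min the count of called genes among the 8 went from 1 to 0 with arrays centred on their medians, with no filter, with the replicate block, with the compared groups alone and without the 5 arrays that stood apart, and lay between 0 and 1 when 1 array was left out. Its adjusted p lay between 0.0211 and 0.172 over the alternatives, and its difference between 0.37 (without ST 60 min C) and 0.62 (without ST 60 min B). At 120 min the count was 0 to 1 when 1 array was left out, and the 1 came without mock 120 min A. That comparison uses ST arrays on which HMOX1 was chosen, so nothing is read from the call. The cause of these changes was not tested. The letters were not taken to pair the samples: of 27 same-letter pairs of arrays 6 had deviations correlated above 0.1 (range -0.24 to 0.27), and these include all 4 pairs of C arrays compared among the flagellin groups, which are arrays with a high NF-kB response. With the replicate block 0 of the 80 pairs were called. The correlation of SRXN1 with HMOX1 turned from 0.47 to -0.15 as deviations from group means.

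Over all genes, the count called was 1039 for EcN over mock at 60 min (0 to 1856 with 1 array left out, 741 to 2176 otherwise) and 848 for ST (79 to 1362, and 335 to 1957). At 120 min it was 10 for EcN (0 to 1177, and 0 to 214) and 90 for ST (0 to 905, and 3 to 298). For mock at 120 over 60 min it was 0 (0 to 979, and 0 to 809). For the change of the effect between the times it was 0 for EcN (0 to 556, and 0 to 213) and 0 for ST (0 to 475, and 0 to 106).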
